A study of Rattus norvegicus with 30 samples.

Results

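The apolipoproteins described here are 10 rat genes, Apoa1, Apoa2, Apoa4, Apoa5, Apob, Apoc1, Apoc2, Apoc3, Apoe and Apoh. They were taken as every probeset of the array that the platform table annotates with one of these symbols alone, which gave 12 probesets of 31042 and 10 genes of 14217. The samples are 30 cultures of primary rat hepatocytes from male Sprague Dawley animals, thawed from frozen stock, plated on collagen under Matrigel and dosed on day 3. There are 6 groups of 5 cultures: vehicle (water), 0.5 mM sodium valproate and 10 mM sodium valproate, each harvested at 24 h and at 48 h. Sodium valproate is an antiepileptic drug that also inhibits histone deacetylases, and the comparison asks how hepatocyte RNA levels change with its dose and time. All groups share the cell source and the culture format, and no group carries a genetic change. The labels do not say how many animals gave the cells, and p-values therefore reflect only differences among cultures, which may be technical. The cultures were read as bulk RNA, in which fewer cells of a type and less RNA per cell cannot be told apart.

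Apolipoproteins are the protein part of lipoproteins, the particles in which the liver and intestine ship triglyceride and cholesterol through the blood. Apob is the non-exchangeable backbone of very-low-density and low-density lipoproteins, while the smaller members move between particles, activate or restrain the enzymes that unload them, and bind the receptors that clear them. The liver is a main source of most of them, and several sit side by side in the genome in gene clusters.

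In the RefSeq gene order of the rat assembly GRCr8, Apoa1, Apoc3, Apoa4 and Apoa5 follow each other on chromosome 8, and Apoc2, Apoc4, Apoc1 and Apoe on chromosome 1. Promoter sequences were found in the RefSeq table for 6 of the 10 members (Apoa4, Apoa5, Apoc1, Apoc2, Apoe and Apoh). The 250 bases before the first listed start site are printed for a pair of genes from each cluster, because the members of each pair differed most in their response to 10 mM valproate among cluster members with a sequence. The windows are chr8:55457621-55457870 (plus strand) for Apoa5, chr8:55435529-55435778 (plus) for Apoa4, chr1:88462366-88462615 (minus) for Apoc2 and chr1:88478306-88478555 (minus) for Apoc1, each written 5′ to 3′ along the gene. Capitals mark matches to the motifs searched.
Apoa5: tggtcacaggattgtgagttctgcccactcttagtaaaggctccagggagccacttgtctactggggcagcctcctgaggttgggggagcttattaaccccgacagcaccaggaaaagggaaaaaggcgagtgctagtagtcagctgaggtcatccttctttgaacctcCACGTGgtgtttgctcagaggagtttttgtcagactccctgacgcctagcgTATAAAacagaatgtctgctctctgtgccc
Apoa4: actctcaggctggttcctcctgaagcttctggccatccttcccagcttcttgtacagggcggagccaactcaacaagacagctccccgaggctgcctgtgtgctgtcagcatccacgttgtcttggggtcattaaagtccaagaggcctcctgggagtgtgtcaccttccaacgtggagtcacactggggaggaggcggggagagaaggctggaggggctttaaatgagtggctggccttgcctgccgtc
Apoc2: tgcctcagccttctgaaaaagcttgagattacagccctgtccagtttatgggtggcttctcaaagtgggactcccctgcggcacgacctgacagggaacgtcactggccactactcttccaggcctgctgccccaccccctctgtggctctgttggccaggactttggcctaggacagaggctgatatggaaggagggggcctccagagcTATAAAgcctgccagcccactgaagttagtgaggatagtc
Apoc1: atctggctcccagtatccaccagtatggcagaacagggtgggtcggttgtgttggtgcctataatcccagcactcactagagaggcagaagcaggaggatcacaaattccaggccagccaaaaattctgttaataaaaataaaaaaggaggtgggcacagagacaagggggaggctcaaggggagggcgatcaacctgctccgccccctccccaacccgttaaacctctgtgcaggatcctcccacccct
The motifs were CAAAGNNCA, a core of hepatocyte nuclear factor 4 sites, the palindrome CACGTG, known as an E-box, and TATAAA, the TATA box, searched on both strands and chosen with the sequences in view. Apoa5 holds a CACGTG 81 bases and a TATAAA 30 bases before its start, and Apoc2 holds a TATAAA 40 bases before its start. The letters of these 3 motifs are not in the windows of Apoa4, Apoc1, Apoe and Apoh. Among 33469 rat promoters of the same length, 5.22% hold CAAAGNNCA, 5.59% CACGTG and 12.9% TATAAA, so a match describes the window and marks no binding site.

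Each culture was hybridised to its own 1-colour array, and values are signal intensities that the authors had scaled to a common trimmed mean per array (1500.5 to 1500.7). Changes are differences of log2(signal + 16) with the standard error (SE) of the fit over all 30 arrays, positive where the first-named group is higher, and a change is called at an adjusted p under 0.05. The number of arrays, 5 in each group, limits the precision of every value. Of the 12 member probesets, 11 passed the filter on low signal (mean at or above 152 signal units). The dimmer Apoe probeset (1371288_at), with signals from 8 to 206, did not and was not tested. Of the hepatocyte markers, 11 of 11 measured were above the filter, and Tf was not analysed here. Replicates correlated at a median of 0.96, and no pair of arrays exceeded 0.967. The ratio of 3′ to 5′ actin probesets, a measure of RNA quality, was above 2 (log2) on 3 arrays, 1 of water at 24 h and 2 of 0.5 mM at 48 h, against 1.05 as the lowest. Replicate 2 of 10 mM at 48 h showed 77.8% of the mean effect of the other 4 cultures of its group, which lay between 101.2% and 107.5%. The 0.5 mM cultures at 48 h spread more widely on this measure, with replicates 1 and 2 at 64.8% and 73.7% and replicate 3 at 127.4%. Some results that rest on these arrays are also given without them, and the others come from all arrays.

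With 10 mM valproate, most apolipoprotein RNAs fell at 24 h, and the losses were far from equal. Apoa5, an activator of triglyceride clearance, and Apoc2, the cofactor of lipoprotein lipase, fell most and stayed low at 48 h. Apoa2, of high-density lipoprotein, and Apoc2 fell further within 10 mM between 24 h and 48 h. Apob fell at 24 h and was back at the level of water by 48 h. The other 6 genes changed by 0.27 (log2) or less at 10 mM. These 6 and Apob are the bright members, with a mean log2 signal of 15 or more, and whether signals that bright are compressed by the scanner was not tested. At 10 mM and 24 h the changes of these 6 lay between the quartiles of other bright probesets (-0.32 and -0.04). With 0.5 mM, most members were slightly higher than water, and Apob was higher at 48 h, when its level in water had fallen. Of the other bright probesets, 45.9% were called higher with 0.5 mM at 24 h and 11.6% at 48 h.

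At 24 h, 9 of the 11 tested member probesets were called lower with 10 mM and 1 higher, where 20.2% of all tested probesets were called lower and 28% higher. At 48 h, 6 of 11 were called lower and 0 higher, against 17.9% and 23.9% of all. These counts depend on the scaling: after quantile normalization 0 were called higher and 5 lower at 24 h and 1 and 3 at 48 h, and after centring on bright probesets 2 and 4 at 24 h and 4 and 3 at 48 h. Of all 21729 tested probesets, quantile normalization left 5308 higher and 5134 lower at 24 h and 4649 and 4439 at 48 h. Centring on bright probesets left 8715 and 2779 at 24 h and 7822 and 2121 at 48 h. By gene, using the probeset with the highest mean, 9 of 10 were called lower at 24 h (25% of all genes) and 6 of 10 at 48 h (22.3%). The median change of the 10 genes was -0.24 at 24 h and -0.20 at 48 h, beside 0.07 and 0.03 over all genes. Values of the 10 mM and water cultures did not overlap for 6 genes at 24 h, all lower (15.9% of probesets), namely Apoa5, Apoc2, Apob, Apoa2, Apoa1 and Apoc1. At 48 h they did not overlap for 3, Apoa5, Apoc2 and Apoa2 (14.6%).

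**Figure D1:**
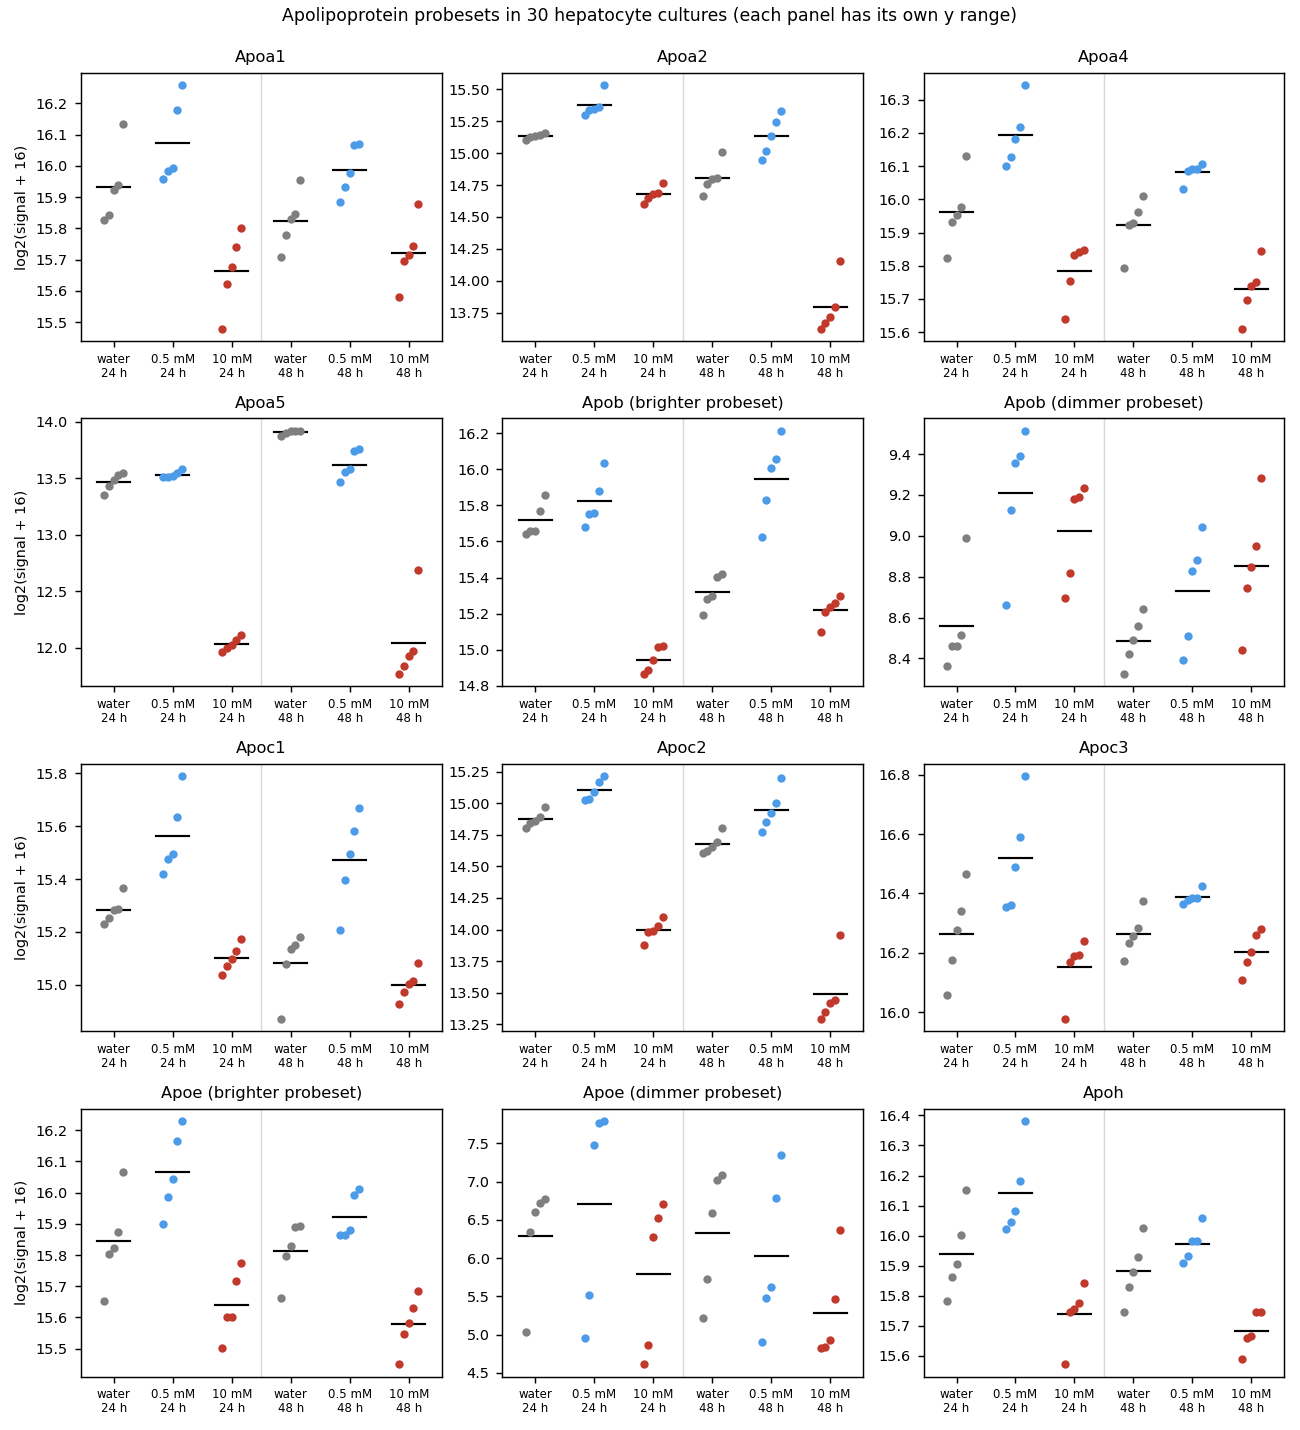
Each point is 1 culture, plotted as log2(signal + 16) by group, with bars at the group means (n = 5) and points ordered by value within a group; every panel has its own y range. The 10 mM cultures of Apoa5, Apoc2 and Apoa2 lie below all water cultures at both times, and 1 culture of 10 mM at 48 h stands above the other 4 in these 3 panels.

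Apoa5 promotes the lipolysis of triglyceride-rich particles by lipoprotein lipase. At 24 h its signals (probeset 1369011_at) were 10435, 11019, 11422, 11796 and 11912 in water and 3963, 4155, 4408, 4289 and 4083 with 10 mM valproate. At 48 h they were 15476, 15468, 15002, 15280 and 15501 in water and 3999, 6583, 3874, 3467 and 3634 with 10 mM. All 10 mM cultures were below all water cultures at both times, with replicate 2 at 48 h the highest of its group. Apoa5 fell by 1.43 ± 0.10 (SE) at 24 h (adjusted p = 1.42e-13), a 2.7-fold drop, and fell by 1.87 ± 0.10 at 48 h (adjusted p = 1.01e-15). In water it rose between 24 h and 48 h, by 0.44 (adjusted p = 0.00471), the only member called higher with time in water, where 3.93% of probesets were called higher and 3.84% lower. With 10 mM the level at 48 h differed from that at 24 h by 0.00 (adjusted p = 0.992). The effect of 10 mM was thus larger at 48 h by 0.44 ± 0.14 (interaction -0.44, adjusted p = 0.0416). That call was lost in 16 of 20 fits that left out 1 array, at -0.37 to -0.45, and without replicate 2 of 10 mM at 48 h the difference was -0.60 (adjusted p = 5.88e-06).

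At 0.5 mM, Apoa5 signals were 11928, 11642, 11632, 11724 and 12226 at 24 h and 13832, 12264, 13632, 12050 and 11322 at 48 h. The 24 h cultures lay within or just above the water range, and the 48 h cultures were all below their water controls. The change was 0.07 ± 0.10 at 24 h (adjusted p = 0.668). At 48 h Apoa5 fell by 0.29 ± 0.10 (adjusted p = 0.0364), and the call was lost in 8 of 10 fits that left out 1 array (adjusted p up to 0.102) and without the 3 arrays of high actin ratio (-0.30). It was the only member lower at 0.5 mM, where 11.9% of probesets were called lower.

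Apoc2 is the cofactor that lipoprotein lipase needs to work. Its signals (1393139_at) at 24 h were 28515, 30419, 29693, 29460 and 32073 in water and 16271, 16111, 17537, 16653 and 15076 with 10 mM. At 48 h they were 28532, 25167, 24883, 25727 and 26530 in water and 10907, 15898, 10399, 10001 and 11142 with 10 mM. The groups did not overlap at either time, and replicate 2 at 48 h was again the high culture. Apoc2 fell by 0.88 ± 0.09 at 24 h (adjusted p = 2.95e-10), a 1.84-fold drop, and fell by 1.18 ± 0.09 at 48 h (adjusted p = 7.07e-13), a 2.27-fold drop. Within 10 mM it fell by 0.50 from 24 h to 48 h (adjusted p = 7.13e-05), while the change in water was -0.20 (adjusted p = 0.157). The difference of the 10 mM effect between the times was -0.30 ± 0.12 (adjusted p = 0.11) and was called without replicate 2 of 10 mM at 48 h (-0.42, adjusted p = 0.00214).

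With 0.5 mM, Apoc2 signals were 36746, 33365, 34860, 33577 and 38095 at 24 h and 37594, 31120, 32836, 29599 and 27906 at 48 h. All 24 h cultures were above all water cultures of that time, and at 48 h the ranges overlapped. Apoc2 rose by 0.23 ± 0.09 at 24 h (adjusted p = 0.046) and by 0.28 ± 0.09 at 48 h (adjusted p = 0.0188). The 24 h call was lost in 7 of 10 fits that left out 1 array, and the 48 h call without replicate 1 of 0.5 mM (0.21, adjusted p = 0.0658).

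Apoc3, which restrains lipoprotein lipase and so opposes Apoc2 and Apoa5, did not follow them. Its signals (1370009_at) ran from 68189 to 90534 in water and from 64480 to 77411 with 10 mM at 24 h, and from 73862 to 85016 and 70628 to 79496 at 48 h. The ranges overlapped at both times. The changes were -0.11 ± 0.07 (adjusted p = 0.208) and -0.06 ± 0.07 (adjusted p = 0.534). Apoc3 rose with 0.5 mM at 24 h by 0.25 ± 0.07 (adjusted p = 0.00808), and at 48 h the change was 0.12 (adjusted p = 0.233).

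Apob forms the backbone of the particles the liver secretes, with 1 copy of the protein in each. The brighter probeset (1388190_at) read 55841, 51720, 59414, 51151 and 51768 in water and 29828, 33178, 30258, 33139 and 31458 with 10 mM at 24 h. At 48 h it read 43845, 43392, 37368, 40300 and 39871 in water and 38590, 39260, 40329, 35005 and 37916 with 10 mM. The groups stood apart at 24 h and overlapped at 48 h, with the water cultures lower and the 10 mM cultures higher at the later time. Apob fell by 0.77 ± 0.08 at 24 h (adjusted p = 5.49e-10), a 1.71-fold drop, and the change at 48 h was -0.10 ± 0.08 (adjusted p = 0.336). The difference between the times was 0.67 ± 0.11 (adjusted p = 7.98e-05) and stayed between 0.64 and 0.70 when any 1 array was left out. Apob fell in water between the times by 0.40 (adjusted p = 0.00112) and rose in 10 mM by 0.28 (adjusted p = 0.0138), so both groups moved toward each other.

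The 0.5 mM cultures read 60342, 55274, 55464, 52540 and 67001 for Apob at 24 h, overlapping water. At 48 h they read 58216, 50493, 76021, 68043 and 65928, all above water. Against water, Apob changed by 0.10 ± 0.08 at 24 h (adjusted p = 0.341) and rose by 0.63 ± 0.08 at 48 h (adjusted p = 4.27e-07). Its mean log2 signal at 24 h and 48 h was 15.82 and 15.95 with 0.5 mM, and 15.72 and 15.32 in water. Between the times the level in water thus fell by more than the level with 0.5 mM rose. Replicates 1 and 2, the cultures of weaker overall effect, hold the lowest values of the 48 h group, and the rise was 0.66 without replicate 1, 0.71 without replicate 2 and 0.56 without replicate 3. Replicates 3 and 4 of the 48 h group are the arrays of high actin ratio and hold its highest values. Without the 3 arrays of high ratio the rise was 0.50 (adjusted p = 1.65e-05), and with the ratio as a covariate 0.48 (adjusted p = 2e-06). The difference between the times at 0.5 mM was 0.52 ± 0.11 (adjusted p = 0.00173), the only member called in that comparison, where 9.83% of probesets were called higher and 9.66% lower. It was 0.36 (adjusted p = 0.0306) without the 3 arrays and 0.27 (adjusted p = 0.142) with the covariate.

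A dimmer Apob probeset (1371157_at) disagreed. Its signals were 350, 313, 491, 336 and 336 in water and 398, 435, 564, 586 and 569 with 10 mM at 24 h, close to the low end of the tested range. It was called higher with 10 mM at 24 h (0.47 ± 0.18, adjusted p = 0.028) and with 0.5 mM at 24 h (0.65, adjusted p = 0.00692). The changes at 48 h were 0.37 (adjusted p = 0.0954) and 0.24 (adjusted p = 0.362). The call at 10 mM was lost in 6 of 10 fits that left out 1 array. The mean of both probesets changed by -0.15 at 10 mM and 24 h (adjusted p = 0.151), so the fall of Apob rests on the brighter probeset. Which part of the transcript each probeset reads was not analysed here.

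Apoa2 is, after Apoa1, the main protein of high-density lipoprotein. Its signals (1369727_at) at 24 h were 35765, 35861, 36571, 35139 and 36212 in water and 25703, 26296, 27914, 26300 and 24784 with 10 mM. At 48 h they were 32902, 27671, 28614, 25890 and 28526 in water and 12600, 18234, 14199, 12995 and 13469 with 10 mM. No 10 mM culture reached the water range at either time, and the 48 h cultures were all below the 24 h cultures of the same dose. Apoa2 fell by 0.46 ± 0.08 at 24 h (adjusted p = 1.02e-05), a 1.37-fold drop, and fell by 1.01 ± 0.08 at 48 h (adjusted p = 2.78e-12), a 2.02-fold drop. The effect was larger at 48 h by 0.56 ± 0.11 (interaction -0.56, adjusted p = 0.000796), and left-out arrays moved it between -0.65 and -0.51. With time alone Apoa2 fell by 0.33 in water (adjusted p = 0.00779) and fell by 0.88 in 10 mM (adjusted p = 8.35e-10).

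With 0.5 mM, Apoa2 signals were 47307, 40302, 41418, 41706 and 42161 at 24 h and 41221, 35933, 38702, 31470 and 33154 at 48 h. All were above water at 24 h, with replicate 1 the highest, and the ranges overlapped at 48 h. Apoa2 rose by 0.24 ± 0.08 (adjusted p = 0.0223) and 0.33 ± 0.08 (adjusted p = 0.00244). Without replicate 1 of 0.5 mM at 24 h the first rise was 0.20 and not called (adjusted p = 0.0725). It was also not called after quantile normalization (0.11, adjusted p = 0.255), ribosomal centring (0.15, adjusted p = 0.107) or centring on bright probesets (0.08, adjusted p = 0.48), while the 48 h rise kept its call under every alternative run.

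The comparisons between the times drew few members. In the difference of the 10 mM effect, Apob was called higher and Apoa2 and Apoa5 lower (1 and 2 of 11 probesets), where 5.8% of probesets were called higher and 4.71% lower. In water alone Apoa5 was called higher and Apoa2 and Apob lower, and in 10 mM alone Apob higher and Apoa2 and Apoc2 lower (7.64% of probesets higher, 5.86% lower).

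Apoa1, the main structural protein of high-density lipoprotein, ran from 58159 to 71889 in water and from 45634 to 57091 with 10 mM at 24 h (1368335_at). It fell by 0.27 ± 0.07 at 24 h (adjusted p = 0.00145), with no overlap, and the change at 48 h was -0.10 (adjusted p = 0.261). Apoa4, made by intestine and, in rats, liver, ran from 57966 to 71755 in water and from 51026 to 58918 with 10 mM at 24 h (1368520_at). It fell by 0.18 ± 0.06 (adjusted p = 0.00768) and fell by 0.19 ± 0.06 at 48 h (adjusted p = 0.00494), with ranges that overlapped at both times. Apoc1, a small protein that slows particle uptake, ran from 38416 to 42188 in water and from 33613 to 36887 with 10 mM at 24 h (1368587_at). Its fall of 0.18 ± 0.07 at 24 h (adjusted p = 0.033) was lost in 5 of 10 fits that left out 1 array, and at 48 h the change was -0.08 (adjusted p = 0.377).

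Apoe, the ligand of the receptors that clear remnant particles, ran from 51538 to 68623 in water and from 46360 to 55989 with 10 mM at 24 h (1370862_at). It fell by 0.20 ± 0.07 at 24 h (adjusted p = 0.0132) and fell by 0.24 ± 0.07 at 48 h (adjusted p = 0.0056), with overlapping ranges. Apoh, also called beta-2-glycoprotein I, a phospholipid-binding plasma protein, ran from 56300 to 72717 in water and from 48650 to 58721 with 10 mM at 24 h (1389350_at). It fell by 0.20 ± 0.07 at both times (adjusted p = 0.0129 and 0.016). The 24 h calls of Apoe and Apoh were each lost without replicate 1 of 10 mM or without replicate 5 of water, and the 48 h call of Apoh without replicate 1 of water (adjusted p = 0.0612).

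At 10 mM and 24 h the small changes of these genes and of Apoc3 lay between the quartiles of those of other bright probesets (-0.32 and -0.04). At 48 h (quartiles -0.34 and -0.08) all but Apoc3 (-0.06) did so. Over 292 probesets that are no members and have a mean log2 signal of 15 or more, the median change with 10 mM was -0.15 at 24 h and -0.18 at 48 h, and 48.3% and 57.5% of them were called lower. Apoa1, Apoa4, Apoc1, Apoc3, Apoe and Apoh changed by -0.27 to -0.11 at 24 h and by -0.24 to -0.06 at 48 h. With 0.5 mM at 24 h the bright median was 0.17, with 45.9% called higher, and the 6 genes changed by 0.14 to 0.28. With 0.5 mM at 48 h they did not follow it: the bright probesets had a median of -0.01 and quartiles of -0.12 and 0.09, and the 6 genes changed by 0.09 to 0.39. Within groups, the deviations of these genes from their group means also followed the median of the bright probesets, with r from 0.777 (Apoc1) to 0.945 (Apoh) over 30 arrays, which share each array's scaling. For Apob the value was 0.252, for Apoa2 0.425, for Apoa5 0.45 and for Apoc2 0.605. When each array was centred on the bright probesets, a choice made after seeing the data, the 6 genes changed at 10 mM by -0.05 to 0.11 at 24 h and by -0.01 to 0.16 at 48 h. On that scale Apoa5 still changed by -1.21 and -1.65, Apoc2 by -0.66 and -0.96, Apoa2 by -0.24 and -0.79, and Apob at 24 h by -0.55. Quantile normalization gave -1.41 and -1.89 for Apoa5, and -0.09 to 0.04 at 24 h for the 6 genes. The part of array scaling and of signal compression in the small changes was not tested.

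**Figure D2:**
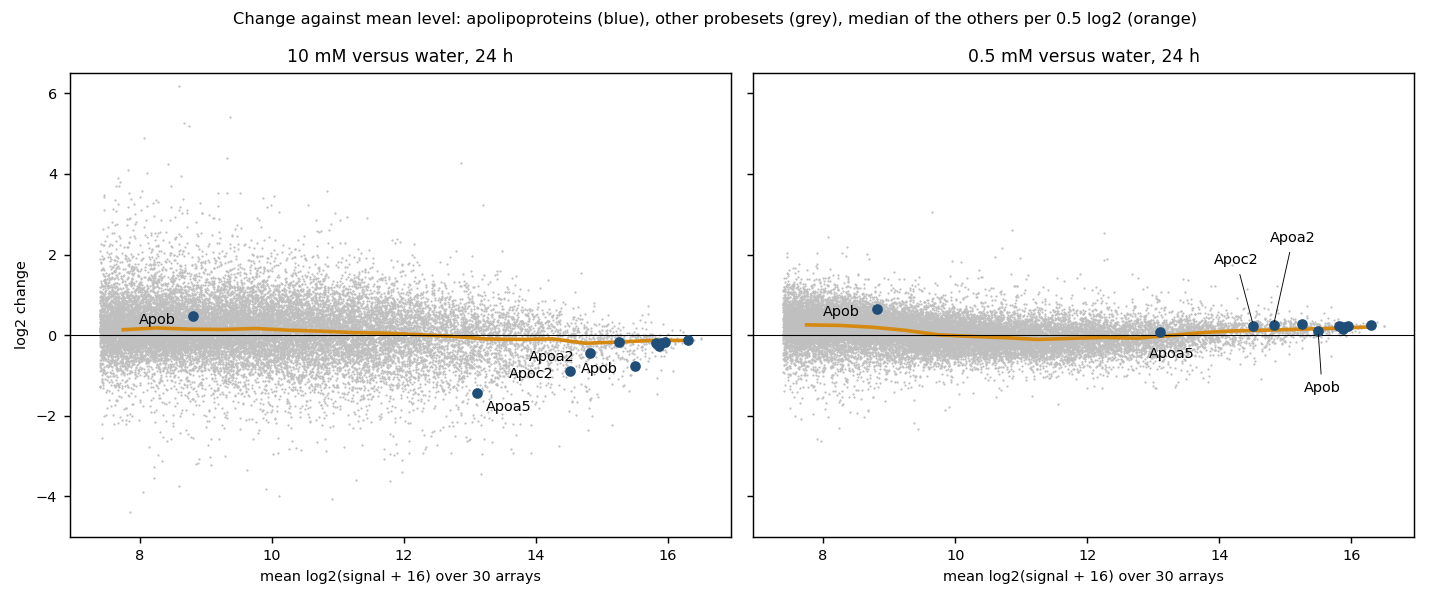
Log2 change at 24 h against mean log2(signal + 16) over 30 arrays for every tested probeset, with 10 mM on the left and 0.5 mM on the right; blue points are apolipoproteins and the orange line is the median of the other probesets in steps of 0.5 with at least 20 probesets. Apoa5, Apoc2, the brighter Apob probeset and Apoa2 lie below the line at 10 mM, while the 6 brightest other members lie close to it in both panels. The dimmer Apob probeset, which carries the same label, changed by 0.47 at 10 mM.

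The low dose gave the opposite picture. At 24 h 8 of 11 member probesets were called higher and 0 lower, against 11.5% and 12.3% of all probesets, and at 48 h 5 were called higher and 1 lower, where 10.2% were called higher. The median over the 10 genes was 0.23 at 24 h and 0.16 at 48 h, beside 0.02 and -0.01 over all genes. Both doses were compared with the same water cultures. Apoc1 rose by 0.28 ± 0.07 at 24 h (adjusted p = 0.00414) and 0.39 ± 0.07 at 48 h (adjusted p = 0.000126), without overlap at either time. Apoa4 rose by 0.23 (adjusted p = 0.00288) and 0.16 (adjusted p = 0.0391), Apoe by 0.22 and Apoh by 0.20 at 24 h (adjusted p = 0.0178 and 0.0267). Apoa1 changed by 0.14 (adjusted p = 0.134) and 0.16 (adjusted p = 0.0914). At 48 h the bright median was -0.01, and the changes of Apoe and Apoh were 0.11 (adjusted p = 0.283) and 0.09 (adjusted p = 0.371). Values did not overlap with water for 3 genes at 24 h, Apoa2, Apoc1 and Apoc2, all higher (7.66% of probesets). At 48 h they did not overlap for Apoa4, Apob and Apoc1, higher (5.78%), and Apoa5, lower (6.69%). After centring on the bright probesets, 0 of 11 member probesets were called higher at 24 h, where 817 of all 21729 were called higher. Leaving out replicate 1 of 0.5 mM left 4 calls at 24 h and 3 at 48 h, and leaving out replicate 5 of 0.5 mM or replicate 1 of water left 5 at 24 h. The 48 h rise of Apoa4 was lost in 7 of 10 fits that left out 1 array, the 24 h rise of Apoe in 3 and that of Apoh in 4.

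**Figure D3:**
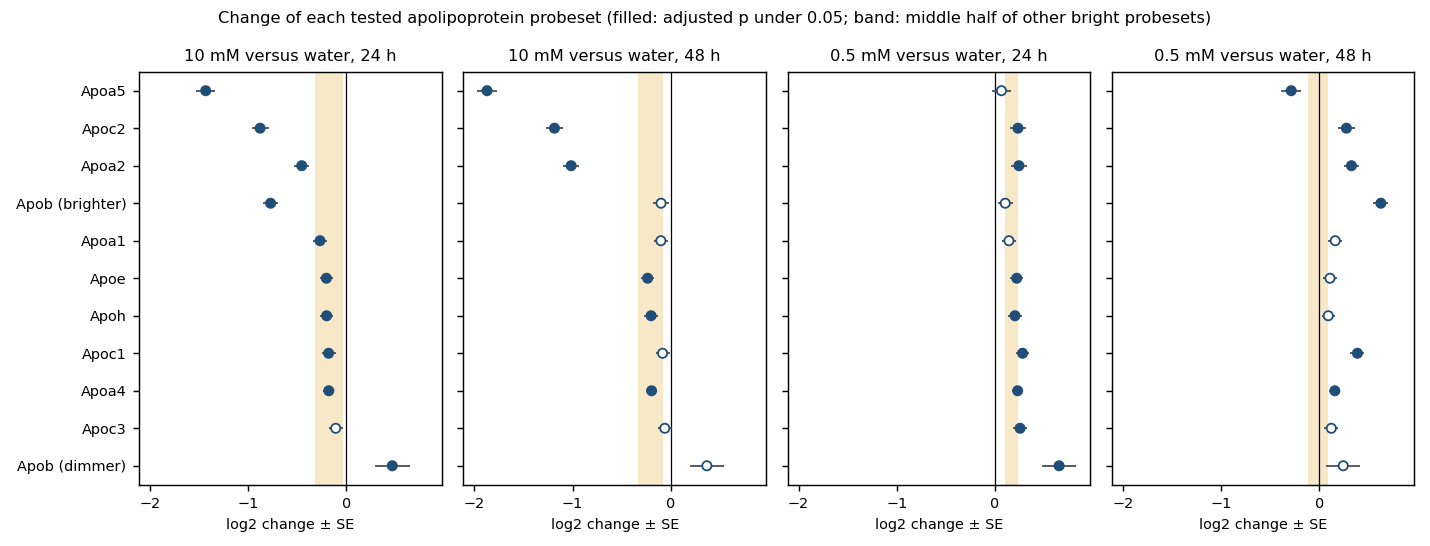
Log2 change ± SE of the 11 tested probesets against water in 4 panels (10 mM and 0.5 mM, 24 h and 48 h), filled where the adjusted p is under 0.05; the shaded band is the range from the 25th to the 75th percentile of 292 other bright probesets. Apoa5 and Apoc2 lie far left of the band at 10 mM, Apoa2 near its edge at 24 h and far left at 48 h, and the brighter Apob probeset left of it only at 24 h. At 0.5 mM and 48 h the brighter Apob probeset, Apoc1, Apoa2 and Apoc2 lie furthest right of the band. The dimmer Apob probeset, Apoa1, Apoa4, Apoc3 and Apoe lie right of it by less, Apoh at its edge and Apoa5 left.

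Setting the doses against each other, 10 of 11 member probesets were lower with 10 mM than with 0.5 mM at 24 h (22.9% of all called lower) and 10 of 11 at 48 h (19.7%). Of the 292 other bright probesets, 81.5% were called lower at 24 h and 49.3% at 48 h. All 10 genes had no overlap between the doses at either time (18.4% and 13.6% of probesets). Apoa5 differed by -1.50 and -1.58, Apoc2 by -1.11 and -1.46, Apoa2 by -0.70 and -1.34 and Apob by -0.88 and -0.73. The 6 smaller movers differed by -0.46 to -0.36 at 24 h and by -0.47 to -0.18 at 48 h, beside -0.32 and -0.15 for the bright median. After centring on the bright probesets 4 of 11 were called lower at 24 h, where 2054 of all 21729 were called lower.

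Neighbours in the genome changed unequally. On chromosome 8 the changes with 10 mM at 24 h were -0.27 for Apoa1, -0.11 for Apoc3, -0.18 for Apoa4 and -1.43 for Apoa5, and on chromosome 1 -0.88 for Apoc2, -0.76 for Apoc4, -0.18 for Apoc1 and -0.20 for Apoe. Apoc4, a minor apolipoprotein next to Apoc2, fell by 1.00 at 48 h (adjusted p = 3.74e-13). The pair Apoc2 and Apoc4 therefore fell by similar amounts, and Apoa5 fell beside neighbours that changed little. Apoa1, Apoc3, Apoa4, Apoc1 and Apoe are bright probesets (mean log2 signal 15.25 to 16.3), while Apoa5, Apoc2 and Apoc4 are dimmer (13.1, 14.52 and 13.91), and the part of brightness in these differences was not tested. Differences between genes were not tested. Within groups, deviations from the group mean correlated at r = 0.886 for Apoa5 and Apoc2, 0.85 for Apoa2 and Apoc2 and 0.752 for Apoa2 and Apoa5 over 30 arrays, and replicate 2 of 10 mM at 48 h was high for all 3 genes.

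**Figure D4:**
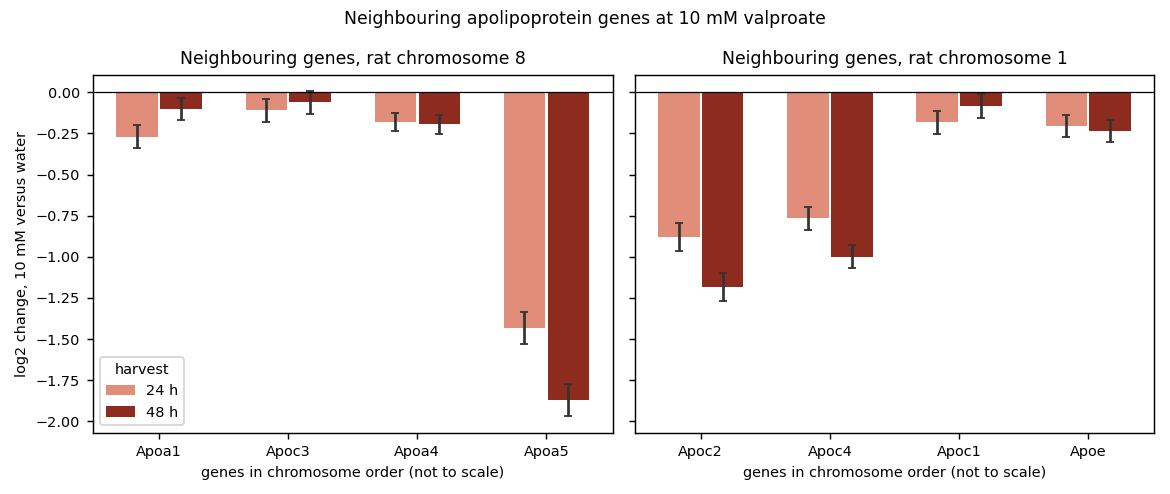
Bars give the log2 change with 10 mM valproate against water at 24 h (light) and 48 h (dark), with SE, for genes in their order on rat chromosomes 8 and 1 (not to scale). Apoa5 on chromosome 8, and Apoc2 with Apoc4 on chromosome 1, show the long bars.

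The genes whose profile over the 30 arrays was most like each member were taken among 11461 genes by Pearson correlation, a description in which all points share the large effect of 10 mM. For Apoa5 they were Slc27a5 (0.983), which activates bile acids and fatty acids, Hgsnat (0.981) and Omd (0.98). For Apoc2 they were Ethe1 (0.985), Apoc4 (0.984) and Gnmt (0.984), the last an abundant liver methyltransferase. For Apoa2 they were C8g (0.978), Serpina3m (0.977) and C9 (0.967), of which C8g and C9 encode complement proteins. For Apob they were Epas1 (0.952), Pc (0.952) and C8a (0.951), a hypoxia-inducible factor, pyruvate carboxylase and a complement chain. Rbp4, the plasma carrier of retinol, was among the 3 most alike of Apoa1 (0.953), Apoa4 (0.97), Apoe (0.977) and Apoh (0.964). Apoc3 was most like Gc (0.967), the vitamin D binding protein, and Apoc1 most like Angptl8 (0.902).

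The machinery around the apolipoproteins was read from lists chosen with earlier results of these data known. Of 14 tested genes of particle assembly and secretion, 4 were called higher and 6 lower with 10 mM at 24 h and 5 and 4 at 48 h, where 31.1% of all genes were called higher and 25% lower at 24 h and 27.6% and 22.3% at 48 h. Mttp, which loads lipid onto Apob, fell by 0.50 at 24 h (adjusted p = 1.24e-06) and rose by 0.28 at 48 h (adjusted p = 0.00337). With 0.5 mM at 48 h Mttp was higher than water by 0.53 (adjusted p = 3.9e-06), at the time and dose where Apob was higher. In water Mttp fell by 0.43 between the times (adjusted p = 0.000381). Cideb, which helps to lipidate nascent particles, fell by 1.48 (adjusted p = 3.61e-17) and fell by 0.82 (adjusted p = 4.19e-11). Tm6sf2, needed for normal lipid load of secreted particles, fell by 0.98 and fell by 1.22 at the later time (adjusted p = 1.7e-10 and 2.21e-12). Sar1b, which builds the vesicles that carry lipoproteins from the endoplasmic reticulum, rose by 0.67 and 0.83 (adjusted p = 9.25e-11 and 1.54e-12).

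Of 8 tested receptor and uptake genes, 1 was called higher and 2 lower with 10 mM at 24 h, and 2 and 2 at 48 h. Of all genes, 31.1% were called higher and 25% lower at 24 h, and 27.6% and 22.3% at 48 h. Vldlr, a receptor for triglyceride-rich particles, fell by 1.21 and, at 48 h, fell by 0.88 (adjusted p = 7.43e-10 and 5.59e-07) on its brightest probeset, and its 3 others changed by -1.11, -0.56 and -0.24 at 24 h and by -0.81, -0.93 and 0.09 at 48 h. Lsr, a lipolysis-stimulated receptor, fell by 0.58 and, at 48 h, fell by 0.97 (adjusted p = 2.89e-08 and 9.21e-13). Lrpap1, a chaperone of the lipoprotein receptor family, rose by 0.68 and 0.66 (adjusted p = 4.35e-06 and 1.02e-05). Lrp1, a remnant receptor, changed by -0.04 at 24 h (adjusted p = 0.893) and rose by 0.71 at 48 h (adjusted p = 0.00247). Of 10 lipases and remodelling genes, 2 rose and 3 fell at 24 h and 5 rose and 3 fell at 48 h. Lpl, the lipase that Apoc2 activates, rose by 2.27 at both times (adjusted p = 1.15e-12 and 2.03e-12). Angptl4, an inhibitor of that lipase, rose by 1.60 and 1.46 (adjusted p = 1.07e-17 and 2.26e-16). Lcat, which esterifies cholesterol on high-density lipoprotein with Apoa1 as cofactor, fell by 1.39 and, at 48 h, fell by 1.47 (adjusted p = 1.05e-13 and 6.22e-14). Angptl8, a partner in the same lipase control, was lower at 48 h with 10 mM (-0.49, adjusted p = 0.000176) and rose with 0.5 mM by 0.88 and 0.98 (adjusted p = 1.26e-07 and 1.87e-08).

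Of 6 genes of cholesterol efflux to high-density lipoprotein, 1 was called higher and 2 lower with 10 mM at each time. Nr1h3, the oxysterol receptor that drives this pathway, fell by 3.10 at 24 h and fell by 1.99 at 48 h (adjusted p = 1.08e-17 and 5.08e-13). Abca1, the transporter that lipidates Apoa1 and a textbook target of that receptor, changed by 0.03 at 24 h (adjusted p = 0.796) and rose by 0.40 at 48 h (adjusted p = 0.000714) on its brightest probeset. Its 3 other probesets changed by -0.07, -0.14 and 0.66 at 24 h and by 0.09, 0.11 and 0.43 at 48 h. Among 16 tested regulators of apolipoprotein genes, 2 were called higher and 8 lower at 24 h and 5 and 3 at 48 h. Beside this list and the efflux list, 31.1% of all genes were called higher and 25% lower at 24 h. At 48 h the shares were 27.6% and 22.3%. Hnf4a, a nuclear receptor that binds promoters of many apolipoprotein genes, fell by 0.79 at 24 h (adjusted p = 7.03e-08) and rose by 0.42 at 48 h (adjusted p = 0.000946) on its brightest probeset. Its other probesets changed by -1.01 and -2.11 at 24 h and by -0.61 and -0.79 at 48 h, so the 3 probesets disagree in sign at 48 h. Srebf1, a regulator of lipid synthesis, fell by 0.89 and, at 48 h, fell by 0.92 (adjusted p = 1.2e-08 and 1.05e-08).

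Of 8 other apolipoproteins and lipoprotein-bound proteins, 1 was called higher and 3 lower with 10 mM at each time. The shares of all genes were 31.1% higher and 25% lower at 24 h, and 27.6% and 22.3% at 48 h. Apon fell by 1.00 at 24 h and fell by 0.49 at 48 h (adjusted p = 9.97e-12 and 1.17e-05) and rose with 0.5 mM by 0.49 and 0.83 (adjusted p = 5.68e-05 and 9.51e-09). Apom, which carries sphingosine-1-phosphate on high-density lipoprotein, changed by -0.04 at 24 h (adjusted p = 0.603) and rose by 0.33 at 48 h (adjusted p = 2.77e-05). Clu, or apolipoprotein J, changed by -0.01 and -0.10 (adjusted p = 0.906 and 0.215) on its brightest probeset. Its other probeset changed by -0.03 at 24 h and by -0.28 at 48 h.

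Kupffer cell and macrophage markers also moved with the dose. Of 11 measured ones, 8 were above the filter and Cd163, Adgre1 and Ptprc were not. With 10 mM, 6 of the 8 were called lower at each time, where 25% of all genes were called lower at 24 h and 22.3% at 48 h. Their summed signal was 28420 to 32588 in water, 33865 to 36641 with 0.5 mM and 12224 to 13794 with 10 mM at 24 h. At 48 h it was 24829 to 27612, 26573 to 32513 and 9908.2 to 15220 in the same order. Apoe is also made by macrophages, and its changes are those given above. The sum of the 11 hepatocyte markers was 564500 to 738210 in water and 484530 to 578860 with 10 mM at 24 h, with 8 called lower. At 48 h it was 577860 to 665670 and 503640 to 563720, with 1 called higher and 7 lower. Enterocytes also make Apoa4 and Apob, and of 4 measured enterocyte markers 3 were above the filter and Cdx1 was not. With 10 mM, 1 of these 3 was called higher and 1 lower at each time. The sum of the 4 was 2303.8 to 3065.7 in water and 1745.5 to 2578.7 with 10 mM at 24 h. At 48 h it was 3075.9 to 3729.2 and 2377.8 to 2714.6. Of 5 measured cholangiocyte markers, Krt7, Krt19 and Spp1 were under the filter. Of the 2 cholangiocyte markers above it, 1 was called lower with 10 mM at each time. The sum of the 5 was 7196.7 to 8742.5 in water and 6381 to 7275 with 10 mM at 24 h. At 48 h it was 10578 to 12264 and 4967.4 to 6585. Of 8 stellate cell markers 6 were above the filter and 2 were called lower at each time, and of 5 endothelial markers 4 were above it, with 1 and 0 lower. The shares of all genes called lower were 25% and 22.3%. The part of these cells in the changes of the apolipoproteins was not tested.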

How the data were processed

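Each of 30 cultures, 5 in each of 6 groups, was read on a 1-colour oligonucleotide array. The authors deposited a linear signal intensity for every probeset, made with MAS5 according to the submitters' processing notes (version not stated there). That the arrays share a trimmed mean was found from the values, and such scaling would hide a shift of all genes. Left out were 57 control probesets of 31099. Symbols came from the platform table, and probesets with several symbols gave no name.

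Signals were turned into log2(signal + 16), so small changes of dim probesets are shrunk. The filter kept probesets whose mean reached the 30th percentile (7.39), which left 21729, representing 11604 genes. A linear model of the 6 group means was fitted with limma 3.58.1 in R 4.3.3 (eBayes with trend), leaving 24 residual degrees of freedom. Tests were two-sided, adjusted p-values are those of Benjamini and Hochberg across the tested probesets, and the probeset with the highest mean stood for a gene. The code was tested on simulated data. Figures used matplotlib 3.10.9 and Python 3.11.15.

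The members and all gene lists were chosen with earlier results of these data known. The rule named every member, up to 4 called genes of each list by size of change at 10 mM, of which a selection is printed, and some genes always, of which 1 is not reported here and Pltp was under the filter. The 3 genes most like a member were named by Pearson's r. Alternatives were other pseudocounts and filters, quantile normalization, centring on ribosomal protein genes or on bright probesets, only the compared groups, the actin ratio, a block for runs of 6 arrays, and leaving out arrays.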

Additional observations from a re-analysis of the deposited data

Results flagged for a closer look

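In 7 of 72 sets of 5 values, from 12 member probesets in 6 groups, the highest or lowest culture stood apart from the rest. Its gap to the nearest culture, in log2 signal, was over 0.71 of the range. For a single set chance alone gives about 1 in 20, but the sets share arrays and are not independent, so the count cannot be judged by that rate. Replicate 2 of 10 mM at 48 h was high for Apoa5 (6583.23, others 3467.4 to 3998.53) and for Apoc2 (15897.6, others 10000.9 to 11141.7), and it is the culture with the weakest overall effect of its group. On the water array at 24 h with a high actin ratio, the dimmer probeset of Apob was high (491.426, others 313.065 to 349.748) and that of Apoe low (16.6452, others 65.4068 to 93.4153). Apoa2 was high in replicate 1 of 0.5 mM at 24 h (47307, others 40301.6 to 42161.3). Apoa4 was low in replicate 4 of 0.5 mM at 48 h (67004.6, others 69575.2 to 70590.5), an array of high actin ratio. Apoc3 was low in replicate 1 of 10 mM at 24 h (64480.5, others 73715.9 to 77411.1).

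The effect of 10 mM differed between 48 h and 24 h for Apoa2 (-0.56, adjusted p = 0.000796), Apoa5 (-0.44, adjusted p = 0.0416) and Apob (0.67, adjusted p = 7.98e-05) by the interaction in limma. The effect of 0.5 mM differed for Apob (0.52, adjusted p = 0.00173).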

How the results depend on the processing

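Over 11 probesets in 10 comparisons, pseudocounts of 1 and 64 and a filter at the 50th percentile kept all 110 directions and calls. The block for runs of 6 arrays, tried as a replicate block, kept 109 and lost 1, the rise of Apoc2 with 0.5 mM at 24 h (0.23). The runs are known only from the running number of the arrays. Deviations correlated at a mean of 0.008 within runs, with single pairs from -0.139 to 0.392, and at -0.002 between runs. Such means cannot show whether some arrays of a run share an effect, and this was not tested. The falls of Apoa5, Apoc2 and Apoa2 with 10 mM at both times, and of the brighter probeset of Apob at 24 h, kept direction and call under every alternative run, while the rise of the dimmer Apob probeset at 24 h kept its direction and lost its call under 7. Quantile normalization moved the median of all probesets at 10 mM and 24 h from 0.10 to -0.01. Centring on the bright probesets, chosen after seeing the data, moved this median at 10 mM from 0.10 to 0.32 at 24 h and from 0.04 to 0.26 at 48 h, and at 0.5 mM and 24 h from 0.07 to -0.10; of the called probesets 75.8%, 78.7% and 15.3% were then higher, against 58%, 57.1% and 48.4%. Between the doses it moved the median from -0.01 to 0.38 at 24 h and from 0.05 to 0.29 at 48 h (83.1% and 77.9% higher, against 55.2% and 57.4%), and in the difference of the 0.5 mM effect from -0.08 to 0.07 (78.9% against 50.4%). Ribosomal centring moved it at 48 h to 0.17 with 10 mM and 0.15 with 0.5 mM (71.2% and 78.2% higher, main 57.1% and 46.2%), at 24 h with 0.5 mM to -0.02 (27.8%, main 48.4%), between the doses at 24 h to 0.13 (67.2%, main 55.2%), in water with time to -0.05 (20.2%, main 50.5%), in the difference of the 10 mM effect to 0.04 (75.1%, main 55.2%) and of the 0.5 mM effect to 0.17 (89.3%, main 50.4%). With the actin covariate the last split was 63.8%.

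After centring on the bright probesets, changes with 10 mM at 24 h turned to 0.0382 for Apoa4, 0.0364 for Apoc1, 0.11 for Apoc3, 0.0136 for Apoe and 0.0165 for Apoh, and at 48 h to 0.12 for Apoa1, 0.0278 for Apoa4, 0.14 for Apoc1, 0.16 for Apoc3 and 0.0223 for Apoh. Between the doses Apoc3 turned to 0.0206 at 24 h and 0.0622 at 48 h. Quantile normalization turned Apoc1 with 10 mM to 0.0448 at 24 h and 0.14 at 48 h, and ribosomal centring turned the difference of the 0.5 mM effect of Apoa4 to 0.17. The cause was not tested.

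With 10 mM at 24 h, quantile normalization left 0 member probesets called higher and 5 lower (5308 and 5134 of all 21729). Bright centring left 2 and 4 (8715 and 2779). At 48 h quantile normalization left 1 higher and 3 lower (4649 and 4439 of all). Ribosomal centring left 1 and 3 (6598 and 2663), and bright centring 4 and 3 (7822 and 2121). With 0.5 mM at 24 h, 2 were higher after quantile normalization (2036 of all) and 4 after ribosomal centring (1310). With only the compared groups 5 were higher (1995), and after bright centring 0 (817). At 48 h ribosomal centring gave 9 higher and 0 lower (4094 and 1142 of all). With the actin covariate 0 were lower (2038 of all). Without the 3 arrays of high actin ratio (also chosen after seeing the data) 0 were lower (2049 of all). Between the doses at 24 h, 4 were lower after quantile normalization (5401 of all) and 4 after bright centring (2054). In water with time, ribosomal centring gave 5 lower (1291 of all). In the difference of the 10 mM effect, quantile normalization, ribosomal centring and bright centring each gave 2 higher (1401, 1529 and 954 of all). Ribosomal centring, no filter, only the compared groups and the actin covariate each gave 1 lower (506, 892 of 31042, 1326 and 1082). In that of 0.5 mM, quantile normalization and bright centring each gave 3 higher, ribosomal centring 6 and the actin covariate 0, and only the compared groups 1 lower.

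Leaving out 1 array left 0 to 1 higher and 6 to 9 lower with 10 mM at 24 h, 0 to 1 and 5 to 6 at 48 h, 4 to 9 higher with 0.5 mM at 24 h, 3 to 5 higher and 0 to 1 lower at 48 h, and 1 to 3 lower in the difference of the 10 mM effect. Over all probesets, calls for 48 h versus 24 h in water went from 1688 to 1047 with only the compared groups and to 1074 after bright centring, and for 48 h versus 24 h in 10 mM valproate from 2933 to 4461 with only the compared groups. Those for the difference of the 0.5 mM effect between 48 h and 24 h went from 4233 to 2817 with only the compared groups, 614 with the actin covariate and 1491 without the 3 arrays. The 5 arrays in a group limit the precision.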
